A study of Arabidopsis thaliana with 6 samples.

Results

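Aquaporins are the channel proteins through which water and small uncharged solutes cross plant membranes. The Arabidopsis family has 35 genes, and all 35 were found among the 33602 genes of the deposited table by their locus identifiers. Members are written here in the hyphenated form that protein databases use, as PIP2-6 for PIP2;6. They comprise 13 plasma membrane intrinsic proteins (PIPs), 10 tonoplast intrinsic proteins (TIPs), 9 NOD26-like intrinsic proteins (NIPs) and 3 small basic intrinsic proteins (SIPs). Libraries were made from whole seedlings of the Columbia (Col) ecotype, for which the labels name no transgene or mutation. In 3 libraries the seedlings had grown on 5 mM glutamine (Gln) as the only nitrogen source, and in the other 3 on 5 mM NH4NO3. The plates of both groups also held a mineral salt mixture free of other nitrogen, sucrose and agar, and seedlings of both groups were 12 days old. Both groups had 2 days of cold at 4 °C, growth at 22 °C and a cycle of 16 h light and 8 h dark. The Gln medium contained no NH4NO3, so supply of Gln and absence of nitrate and ammonium cannot be told apart. In whole seedlings, fewer cells of a type and less RNA per cell cannot be told apart either.

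Each aquaporin forms a pore of its own within a tetramer. PIPs sit in the plasma membrane, and PIP1 proteins reach it together with PIP2 partners, which are the stronger water channels. TIPs sit in the membrane of the vacuole, where several also pass urea, ammonia or hydrogen peroxide. NIPs carry solutes such as boric acid, arsenite and lactic acid rather than mainly water, and SIPs lie in the endoplasmic reticulum.

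The pore is lined by a pair of short loops that meet in the membrane, each ending in a box of asparagine, proline and, in most members, alanine (NPA). In the coding sequences, the third codon of the first box stood for alanine in 30 of the 35 genes, and that of the second box in 31. The exceptions were all NIPs and SIPs. The second boxes of 5 genes described below are shown here because they include both kinds of departure from alanine, glycine and valine, beside the usual form, with the 9 bases of the box in capitals and 15 coding bases on either side. All are read 5′ to 3′ on the coding strand from the RefSeq TAIR10.1 genome.
PIP2-6: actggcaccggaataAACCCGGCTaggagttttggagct
TIP2-2: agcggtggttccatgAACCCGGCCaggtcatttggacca
NIP1-1: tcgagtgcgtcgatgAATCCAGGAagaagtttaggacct
NIP5-1: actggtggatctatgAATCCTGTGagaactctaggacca
NIP6-1: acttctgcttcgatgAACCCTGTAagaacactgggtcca
The third codon is an alanine codon in PIP2-6 (chr2:16293462-16293500, plus strand) and TIP2-2 (chr4:9700071-9700109, plus strand). It is a glycine codon in NIP1-1 (chr4:10421899-10421937, minus strand). It is a valine codon in the boric acid channel genes NIP5-1 (chr4:6431680-6431718, minus strand) and NIP6-1 (chr1:30350787-30350825, minus strand). The first boxes of the SIPs depart from alanine in a different way in each gene, and that of NIP5-1 is shown beside them.
NIP5-1: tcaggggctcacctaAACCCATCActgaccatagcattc
SIP1-1: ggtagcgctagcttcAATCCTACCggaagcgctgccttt
SIP1-2: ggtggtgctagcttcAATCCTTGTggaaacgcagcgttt
SIP2-1: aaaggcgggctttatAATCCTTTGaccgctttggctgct
The third codon stands for serine in NIP5-1 (chr4:6432354-6432392), threonine in SIP1-1 (chr3:1073801-1073839), cysteine in SIP1-2 (chr5:6056171-6056209) and leucine in SIP2-1 (chr3:21079417-21079455), all on the minus strand.

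The deposited values are RPKM, read numbers divided by gene length and by the size of the library, so levels of different genes can be set beside each other. The libraries held 30269358 to 35421767 reads in genes for Gln and 28654470 to 31980696 for NH4NO3, as implied by the values. The 19284 genes that averaged 1 RPKM or more were tested with limma on log2(RPKM + 1), and a gene was called at a Benjamini-Hochberg adjusted p under 0.05 over all of them. Fold changes below are Gln minus NH4NO3 on that log2 scale. The added 1 shrinks the fold change of weakly expressed genes. In NH4NO3 replicate 2, 44.9% of the genes at 1 to 100 reads had an even number of reads, with a 95% exact binomial interval of 43.7% to 46.1% that covers counting error only. The share was 57.8% to 60.9% in the remaining 5 libraries. Because that library stands apart, counts that lead the account are also given without it. The labels do not say that replicates came from separate plates, so p-values reflect the spread among these samples alone, and it may be technical.

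Seedlings on Gln had lower transcript levels of most plasma membrane and vacuolar aquaporins than seedlings on NH4NO3. Of the 27 aquaporins that passed the filter, 17 were called, against 41.2% of all genes tested. Among the 27, 15 were lower, 2 were higher and 10 were not called, whereas over all genes tested 19.8% were called lower and 21.4% higher. The 15 lower genes were 9 of 13 PIPs, 5 of 6 tested TIPs and 1 of 5 tested NIPs, and no SIP was called lower. The 2 higher genes were TIP4-1 and SIP2-1. The median log2 fold change of the 27 genes was -0.30, and that of all genes tested was -0.02. Without NH4NO3 replicate 2, 12 aquaporins were called lower and 0 higher by limma, when 13.5% of all genes were called lower and 17.1% higher. At an unadjusted p under 0.05, 14 aquaporins were lower and 2 higher without that library, against 20.2% lower and 22.1% higher over all genes. TIP4-1 then had a limma adjusted p of 0.117 and SIP2-1 one of 0.158.

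**Figure D1:**
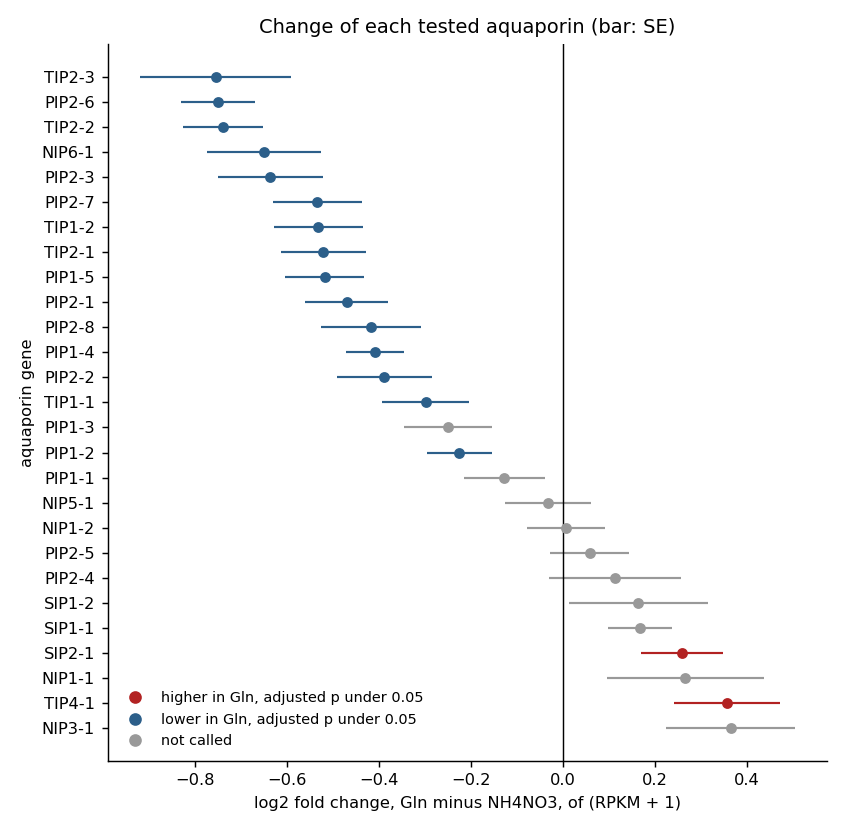
Log2 fold change of (RPKM + 1), Gln minus NH4NO3, for each of the 27 tested aquaporins, with the limma SE as a bar. Colours show genes higher in Gln, lower in Gln or not called. The 15 lower genes run from -0.76 (TIP2-3) to -0.23 (PIP1-2), and the 2 higher genes are TIP4-1 at 0.36 and SIP2-1 at 0.26.

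The values of the 2 groups did not overlap for 15 lower and 3 higher aquaporins, against 27.1% lower and 26.5% higher over all genes tested. The 15 without overlap were the same 15 genes that were called lower. The 3 above were NIP3-1, SIP1-1 and SIP2-1, of which SIP2-1 alone was called, while TIP4-1 was called with groups that overlapped. All 12 aquaporins with a mean of at least 100 RPKM had a negative fold change, and 10 of them were called lower. Over all 1386 genes at that level, 663 had a negative fold change, 21.4% were called lower and 28.5% higher. Across the 27 tested aquaporins the level and the fold change had a Spearman rho of -0.40, as a description over genes that share the same 6 libraries.

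Summed over all 35 genes, aquaporin transcripts came to 3721, 3731 and 4029 RPKM in the 3 Gln libraries, against 4770, 5534 and 5294 RPKM in the 3 NH4NO3 libraries. The groups did not overlap, and the Gln mean was 26.4% below the NH4NO3 mean. Without NH4NO3 replicate 2 the ratio of Gln to NH4NO3 was 0.761, against 0.736 with it. The TIP sum was 1893 ± 71.7 RPKM in Gln and 2703 ± 203 RPKM in NH4NO3 (mean ± SD, n = 3 each, here and below). The PIP2 sum was 854 ± 65.6 RPKM in Gln and 1238 ± 105 RPKM in NH4NO3, and the PIP1 sum 929 ± 52.4 RPKM in Gln and 1124 ± 85.3 RPKM in NH4NO3. The PIP1 sum was therefore above the PIP2 sum in Gln means and below it in NH4NO3 means. The NIP sum, 56.2 ± 4.19 RPKM in Gln and 51.9 ± 6.07 RPKM in NH4NO3, differed by less than the spread between replicates. The SIP sum was 94.6 ± 0.828 RPKM in Gln and 82.6 ± 3.53 RPKM in NH4NO3, without overlap.

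**Figure D2:**
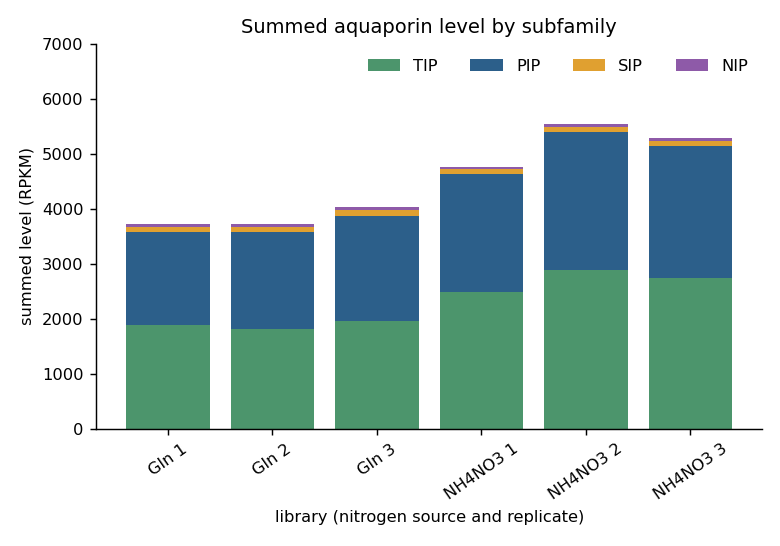
Summed level in RPKM of the TIP, PIP, SIP and NIP genes in each library, stacked from 0, with the 3 Gln libraries on the left and the 3 NH4NO3 libraries on the right. The stacks reach 3721 to 4029 RPKM in Gln and 4770 to 5534 RPKM in NH4NO3, and NIPs and SIPs form a thin band in every library.

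The order of the members by level was much the same in both media. TIP1-2 took 26.3% of the family sum in Gln and 28.0% in NH4NO3, and TIP2-1 took 13.7% in Gln and 14.5% in NH4NO3. These vacuolar channel genes were the highest and the next highest in every library. The next places were held by PIP1-2, PIP1-3, PIP2-7 and PIP2-1 in Gln means and by PIP2-7, PIP2-1, PIP1-2 and PIP1-3 in NH4NO3 means. Neighbours among these 4 genes differed by no more than about the spread of their replicates, so their order is not firm. Within NH4NO3, replicate 1 had the lowest value for 15 of the 27 tested genes. Within Gln, replicate 3 had the highest value for 19.

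**Figure D3:**
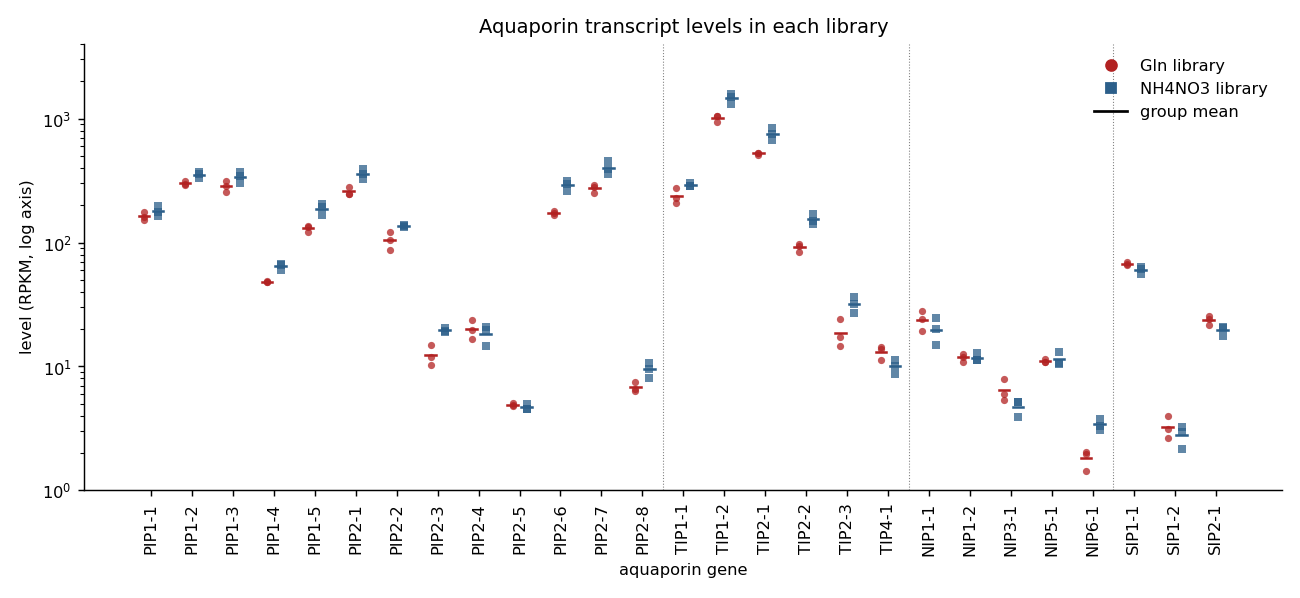
Level of each tested aquaporin in RPKM on a log axis, with Gln libraries as circles on the left and NH4NO3 libraries as squares on the right of each gene, and group means as lines. Dotted lines divide PIPs, TIPs, NIPs and SIPs. Most abundant PIPs and TIPs have all Gln points below all NH4NO3 points, whereas NIPs apart from NIP6-1 overlap or lie higher.

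Among the PIP2 genes, whose products are efficient water channels, PIP2-6 had the lowest adjusted p of the family. It is known from the veins of leaves, where it is expressed with PIP1-2 and PIP2-1. PIP2-6 (AT2G39010, TAIR10.1 chr2:16291280-16294101, plus strand) was at 172, 166 and 178 RPKM in the Gln libraries, against 261, 314 and 298 RPKM in the NH4NO3 libraries. All Gln values lay well below all NH4NO3 values, and the log2 fold change was -0.75 ± 0.08 (SE; limma adjusted p = 8.86e-05). PIP2-1 (AT3G53420), a channel for water and hydrogen peroxide that acts in guard cells and in the emergence of lateral roots, was at 245, 247 and 283 RPKM in Gln and 324, 392 and 359.8 RPKM in NH4NO3. The groups did not overlap, and PIP2-1 changed by -0.47 ± 0.09 on the log2 scale (limma adjusted p = 0.00272). PIP2-7 (AT4G35100), whose delivery to the plasma membrane depends on the syntaxins SYP121 and SYP61, was at 253, 281 and 293 RPKM in Gln and 358, 453 and 391 RPKM in NH4NO3. It was lower in every Gln library than in every NH4NO3 library (log2 fold change -0.53 ± 0.10, limma adjusted p = 0.00199). Its close relative PIP2-8 (AT2G16850) was far less abundant, at 6.55, 6.36 and 7.47 RPKM in Gln and 8.08, 10.8 and 9.52 RPKM in NH4NO3. The PIP2-8 change of -0.42 ± 0.11 was called (limma adjusted p = 0.0125) and was not called without NH4NO3 replicate 2 (adjusted p = 0.0535, with all alternatives between 0.00413 and 0.0697).

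PIP2-2 (AT2G37170), a contributor to water uptake by roots, and PIP2-3 (AT2G37180), first isolated as the desiccation gene RD28, are neighbours on chromosome 2 with 2612 bases between them. Their coding sequences were identical at 94.8% of 858 aligned bases. PIP2-2 was at 87.6, 106 and 120.5 RPKM in Gln and 136, 133 and 139.7 RPKM in NH4NO3 (log2 fold change -0.39 ± 0.10, limma adjusted p = 0.0138). Leaving out NH4NO3 replicate 3 gave an adjusted p of 0.0507, and all alternatives lay between 0.00282 and 0.0910. PIP2-3 was at 10.3, 11.9 and 15.01 RPKM in Gln and 19.4, 19.1 and 20.5 RPKM in NH4NO3 (log2 fold change -0.64 ± 0.11, limma adjusted p = 0.00194). Both genes were lower without overlap, and in both the Gln values were more widely spread than the NH4NO3 values. Their deposited multi-read ratios were 0.000948 and 0.000947, near 0, but reads of genes so alike could still be assigned to the wrong copy. PIP2-4 (AT5G60660), expressed mainly in roots, was at 19.9 ± 3.52 RPKM in Gln and 18.4 ± 3.22 RPKM in NH4NO3, and PIP2-5 at 4.91 ± 0.152 RPKM in Gln and 4.68 ± 0.230 RPKM in NH4NO3. Neither was called (limma adjusted p = 0.562 for PIP2-4 and 0.619 for PIP2-5), and they were the PIPs with a fold change above 0.

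Of the 5 PIP1 genes, 3 were called lower. PIP1-5 (AT4G23400) was at 133, 123 and 135 RPKM in Gln and 166, 203 and 194 RPKM in NH4NO3 (log2 fold change -0.52 ± 0.09, limma adjusted p = 0.00117). PIP1-4 (AT4G00430), a channel for hydrogen peroxide, was at 47.9, 48.8 and 47.7 RPKM in Gln and 60.6, 67.0 and 65.4 RPKM in NH4NO3. The 3 Gln values of PIP1-4 lay close together, all below the NH4NO3 values, and the log2 fold change was -0.41 ± 0.06 (limma adjusted p = 0.000803). PIP1-2 (AT2G45960), the member that contributes to water transport in both root and rosette, was at 291, 299 and 314 RPKM in Gln and 333, 370.2 and 355 RPKM in NH4NO3. This change was small, -0.23 ± 0.07 (limma adjusted p = 0.0289), and ended as a call without NH4NO3 replicate 2 (adjusted p = 0.121). It also ended when NH4NO3 replicate 3, Gln replicate 1 or Gln replicate 2 was left out, and all alternatives lay between 0.00233 and 0.121. PIP1-3 (AT1G01620) was at 257, 285 and 313 RPKM in Gln and 304, 368 and 345 RPKM in NH4NO3, and PIP1-1 at 153, 162 and 176 RPKM in Gln and 163, 177 and 198.5 RPKM in NH4NO3. Their groups overlapped and neither was called (limma adjusted p = 0.0614 for PIP1-3 and 0.271 for PIP1-1). PIP1-3 was called lower under 6 of 15 alternatives, namely without NH4NO3 replicate 1 (limma adjusted p = 0.0294), without Gln replicate 3 (0.0309), and with quantile normalization, the replicate block, array weights or voom weights, and all alternatives lay between 0.00666 and 0.208. PIP1-1 was called lower under 1, quantile normalization (limma adjusted p = 0.0276), and all alternatives lay between 0.0276 and 0.674.

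The most abundant TIPs were lower in Gln. TIP1-2 (AT3G26520), a gamma-type vacuolar water channel, was at 1044, 933 and 1042 RPKM in Gln and 1315, 1568 and 1494 RPKM in NH4NO3. No Gln library reached the lowest NH4NO3 library, and the log2 fold change was -0.53 ± 0.10 (limma adjusted p = 0.00201). TIP2-1 (AT3G16240), a delta-type channel that passes ammonia as well as water, was at 532, 530.1 and 511 RPKM in Gln and 672, 846 and 751 RPKM in NH4NO3. Here the NH4NO3 values were the more widely spread, and the log2 fold change was -0.52 ± 0.09 (limma adjusted p = 0.00173). TIP2-1 overlaps other genes on the opposite strand, over up to 445 bases, and the reads of such genes cannot be told apart without strand.

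TIP2-2 (AT4G17340), a delta-type channel found mainly in roots, was at 83.3, 93.8 and 96.8 RPKM in Gln and 148, 142 and 170.2 RPKM in NH4NO3. Its log2 fold change was -0.74 ± 0.09 (limma adjusted p = 0.000156), and the groups were widely apart. TIP2-3 (AT5G47450), an ammonia-conducting channel also of roots, was at 14.5, 17.2 and 24.2 RPKM in Gln and 31.8, 27.1 and 36.2 RPKM in NH4NO3. TIP2-3 had the largest decrease of any tested aquaporin on the log2(RPKM + 1) scale, -0.76 ± 0.16, with a larger error than TIP2-2 (limma adjusted p = 0.00513). By the ratio of mean RPKM, the less abundant NIP6-1 fell further, by 46.7% against 41.2% for TIP2-3. TIP1-1 (AT2G36830), the other gamma-type gene, was at 210.3, 231 and 275 RPKM in Gln and 302, 288 and 287 RPKM in NH4NO3. Its call (log2 fold change -0.30 ± 0.10, limma adjusted p = 0.0313) was lost when any library other than Gln replicate 3 was left out, with adjusted p-values up to 0.0946, and all alternatives lay between 0.00356 and 0.128. TIP4-1 (AT2G25810), which passes urea when expressed in yeast, ran the other way, at 11.2, 14.4 and 13.8 RPKM in Gln and 11.3, 8.66 and 10.13 RPKM in NH4NO3. Gln replicate 1 lay within the NH4NO3 range, and the log2 fold change was 0.36 ± 0.12 (limma adjusted p = 0.0323). Leaving out replicate 2 or 3 of either group ended that call, with adjusted p-values of 0.0727 to 0.117, and all alternatives lay between 0.00891 and 0.139.

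NIP6-1 (AT1G80760) was the NIP that was called. It is a boric acid channel that distributes boron to young shoot tissue, and it was at 1.43, 2.04 and 1.98 RPKM in Gln and 3.34, 3.78 and 3.09 RPKM in NH4NO3. No Gln value reached the NH4NO3 range, and the log2 fold change was -0.65 ± 0.12 (limma adjusted p = 0.00259). NIP6-1 overlaps AT1G80750 on the other strand by 26 bases, and that more abundant gene was at 50.1 ± 4.00 RPKM in Gln and 48.9 ± 2.74 RPKM in NH4NO3, so the low level of NIP6-1 is uncertain. NIP5-1 (AT4G10380), the root channel for boric acid uptake, was at 11.1 ± 0.372 RPKM in Gln and 11.4 ± 1.47 RPKM in NH4NO3, and was not called (limma adjusted p = 0.804). Whether the 2 genes differ in their change was not tested.

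The other tested NIPs were not called. NIP1-1 (AT4G19030), a gene of roots known for arsenite entry, was at 19.4, 24.4 and 27.8 RPKM in Gln and 20.1, 14.9 and 24.6 RPKM in NH4NO3, with a wide spread in both groups (limma adjusted p = 0.239). NIP1-2 (AT4G18910), which carries malate-bound aluminium, was at 11.9 ± 0.872 RPKM in Gln and 11.8 ± 0.867 RPKM in NH4NO3, the smallest fold change of the family. NIP3-1 (AT1G31885) was at 6.02, 7.90 and 5.37 RPKM in Gln and 5.18, 3.93 and 5.13 RPKM in NH4NO3. Its Gln values were all above its NH4NO3 values, but the log2 fold change of 0.36 ± 0.14 missed the threshold (limma adjusted p = 0.0611). It passed when Gln replicate 3 was left out (adjusted p = 0.0313), and with quantile normalization or array weights. All alternatives lay between 0.0176 and 0.221.

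The SIP genes of the endoplasmic reticulum all had fold changes above 0, and 1 of the 3 was called. Over all 19284 genes tested, 9077 had a fold change above 0 and 41.2% were called in either direction. SIP2-1 (AT3G56950) was at 21.7, 24.1 and 25.5 RPKM in Gln and 20.6, 17.6 and 21.0 RPKM in NH4NO3 (log2 fold change 0.26 ± 0.09, limma adjusted p = 0.0419). The groups did not overlap but came within 1 SD of each other, and the call was lost when NH4NO3 replicate 1 or 2, or Gln replicate 2 or 3, was left out, with adjusted p-values of 0.0565 to 0.158. SIP2-1 also overlaps AT3G56940 on the other strand by 147 bases, and that abundant gene was lower in Gln, at 556 ± 36.2 RPKM against 796 ± 78.1 RPKM in NH4NO3. SIP1-1 (AT3G04090) was at 67.6 ± 2.33 RPKM in Gln and 60.1 ± 3.94 RPKM in NH4NO3 (limma adjusted p = 0.0769). SIP1-2 was at 3.25 ± 0.682 RPKM in Gln and 2.79 ± 0.572 RPKM in NH4NO3 (limma adjusted p = 0.412) and overlaps AT5G18300 on the other strand by 444 bases.

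The 8 aquaporins below the filter are mostly those known from seeds, pollen and anthers. TIP1-3, TIP5-1 and NIP4-1, all known from pollen, had 0 reads in all 6 libraries. An expected number of 3 reads was taken as the limit for a count of 0 in a single library, which is up to 0.139 RPKM for TIP1-3. The seed channel gene TIP3-1 had 7 reads over the Gln libraries and 0 over the NH4NO3 libraries, and the other seed channel gene, TIP3-2, had 2 reads in Gln and 16 in NH4NO3. NIP4-2 had 46 reads in Gln and 16 in NH4NO3, NIP7-1 had 34 in Gln and 25 in NH4NO3, and NIP2-1, a lactic acid channel of oxygen-starved roots, had 38 in Gln and 23 in NH4NO3. NIP2-1 also overlaps other genes on the opposite strand, over up to 1432 bases, so its reads are uncertain. All 6 seed markers and all 3 pollen markers were also below the filter.

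Close relatives were compared by the log2 ratio of (RPKM + 1) in each library, and the plain ratios printed here are of RPKM. Of 10 pairs, 8 had both members above the filter. The ratio of PIP2-2 to PIP2-3 was 8.48, 8.88 and 8.03 in the Gln libraries, against 6.98, 6.98 and 6.82 in the NH4NO3 libraries. It was higher in every Gln library, and the log2 ratio of (RPKM + 1) was higher by 0.25. The exact permutation test gave a 2-sided p of 0.10, the smallest that 3 against 3 samples can give. After Benjamini-Hochberg adjustment over the 8 pairs that permutation p was 0.40. PIP2-2/PIP2-3 was the pair without overlap between groups. The ratio of TIP1-1 to TIP1-2 was 0.201, 0.247 and 0.264 in Gln and 0.230, 0.183 and 0.192 in NH4NO3, with overlap (exact permutation p = 0.20). The ratio of TIP2-2 to TIP2-3 was 5.73, 5.46 and 4.00 in Gln and 4.66, 5.23 and 4.70 in NH4NO3, with overlap (exact permutation p = 0.90). In the other 5 pairs the groups overlapped and exact p-values were 0.20 to 1.0.

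**Figure D4:**
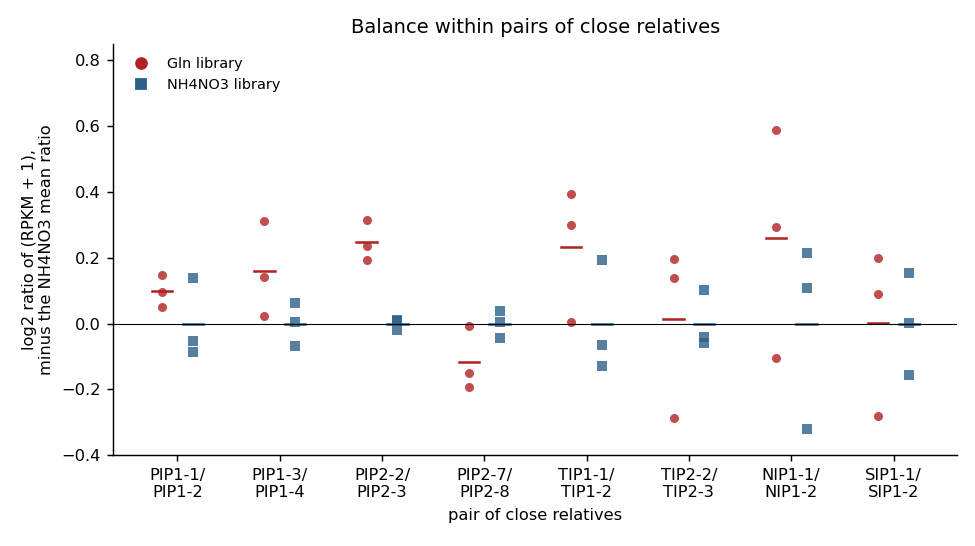
Log2 ratio of (RPKM + 1) within 8 pairs of close relatives in each library, drawn relative to the NH4NO3 mean of the pair, with Gln libraries as circles on the left and NH4NO3 libraries as squares on the right. Lines are group means. PIP2-2/PIP2-3 is the pair whose Gln points all lie above its NH4NO3 points, with a mean difference of 0.25.

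Genes that act on PIP proteins included both higher and lower ones. Of 19 genes of trafficking, phosphorylation, degradation and regulation of PIPs, 18 were tested, 8 were higher, 5 were lower and 5 were not called, against 21.4% higher and 19.8% lower over all genes tested. Without NH4NO3 replicate 2 there were 5 higher and 3 lower, against 17.1% higher and 13.5% lower over all genes. These are counts among 18 genes, and whether their shares differ from those of all genes was not tested. QSK1, a receptor-like kinase that acts with SIRK1 on PIP phosphorylation, was at 76.9 ± 2.33 RPKM in Gln and 44.8 ± 2.34 RPKM in NH4NO3 (log2 fold change 0.77 ± 0.06). SIRK1 itself was lower (log2 fold change -0.32, limma adjusted p = 0.0251), though not called without NH4NO3 replicate 2 (adjusted p = 0.086). BAK1, a co-receptor of immune and brassinosteroid receptors, was at 46.3, 40.6 and 43.2 RPKM in Gln and 32.7, 28.3 and 28.9 RPKM in NH4NO3. RAP2.4b, a transcription factor of the ERF family, was lower, at 38.5 ± 3.97 RPKM in Gln and 58.4 ± 5.89 RPKM in NH4NO3. RMA2, a ubiquitin ligase of the family that holds PIP2-1 back in the endoplasmic reticulum, was also lower, at 9.35 ± 0.831 RPKM in Gln and 13.9 ± 1.53 RPKM in NH4NO3. The family did not move together. RMA1 was higher (log2 fold change 0.22, limma adjusted p = 0.0393), though not called without NH4NO3 replicate 2 (adjusted p = 0.141). RMA3 was not called. The median of the 18 log2 fold changes was 0.14.

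Borate exporters, which move boron on from the cells that NIP5-1 and NIP6-1 supply, were 7 genes, of which 4 were tested. BOR1 and BOR2 were lower, BOR1 at 3.93 ± 0.444 RPKM in Gln and 5.83 ± 0.509 RPKM in NH4NO3, and BOR2 at 5.33 ± 0.370 RPKM in Gln and 8.27 ± 0.407 RPKM in NH4NO3. BOR5 was higher, at 1.92 ± 0.376 RPKM in Gln and 1.16 ± 0.103 RPKM in NH4NO3, but was not called without NH4NO3 replicate 2 (limma adjusted p = 0.0570, with all alternatives between 0.0124 and 0.0991). BOR3 was not called.

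Markers of leaf and root moved between the same groups as the aquaporins. Over all genes tested, 19.8% were lower and 21.4% higher. Of 12 leaf markers, 11 were lower and 1 was not called, and their summed level was 14860 to 17160 RPKM in Gln and 19140 to 22140 RPKM in NH4NO3. None of the 12 was at 0. Of 16 root markers, 9 were higher, 0 were lower and 7 were not called by limma, and their summed level was 171 to 227 RPKM in Gln and 120.1 to 132 RPKM in NH4NO3. They did not move as one. The log2 fold change was 1.43 for PRP3, 1.36 for EXPA7 and 1.21 for EXPA18, but 0.008 for SHR and 0.023 for WER. It was above 0 for 14 of the 16 and below 0 for 2, SCR and SKOR. SCR was at -0.29 and was not called (limma unadjusted p = 0.0297, adjusted p = 0.066). SKOR, a potassium channel gene of the root stele, lay below in all 3 Gln libraries without being called, at 0.840 ± 0.251 RPKM in Gln and 1.44 ± 0.361 RPKM in NH4NO3 (limma unadjusted p = 0.0270, adjusted p = 0.0614), and was singled out after its values were seen. Of the alternatives, voom weights called 2 root markers lower, leaving out Gln replicate 2 called 2, and quantile normalization called 1. Quantile normalization also called 1 leaf marker higher and 9 lower. The median log2 fold change was -0.57 for the leaf markers and 0.40 for the root markers. Without NH4NO3 replicate 2, 8 leaf markers were lower and 7 root markers higher, against 13.5% lower and 17.1% higher over all genes. The aquaporins called lower included TIP2-2 and TIP2-3, known mainly from roots, as well as PIP2-6, known from leaf veins. PIP2-4, NIP1-1 and NIP5-1, also described above as root genes, were not called (log2 fold changes 0.11, 0.27 and -0.033). The part of tissue proportions in the aquaporin changes was not tested.

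**Figure D5:**
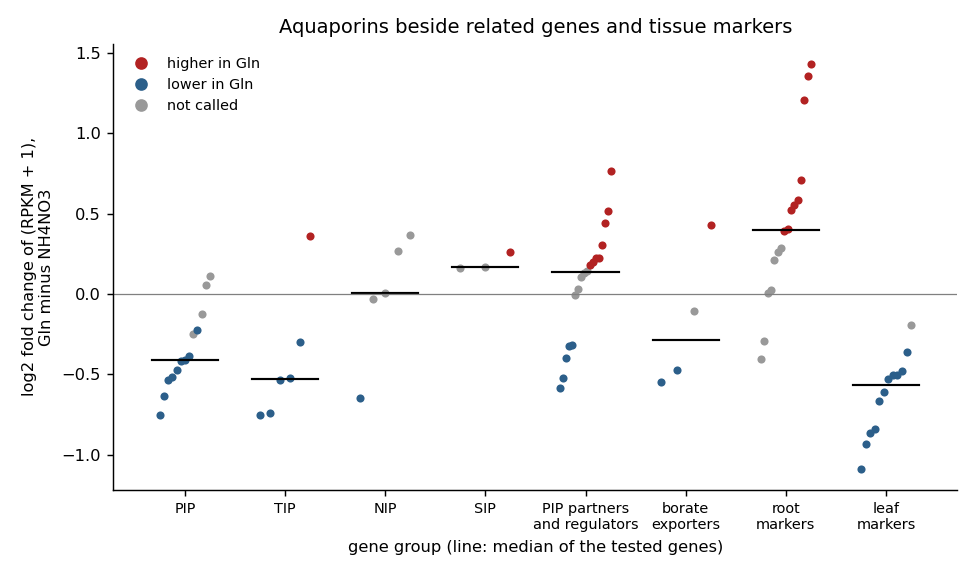
Log2 fold change of (RPKM + 1), Gln minus NH4NO3, of every tested gene of the 4 aquaporin groups, the PIP partners and regulators, the borate exporters and the root and leaf markers. Each point is a gene, coloured by its call, and lines are medians. PIPs and TIPs lie mostly below 0 with the leaf markers, which have a median of -0.57, while root markers lie mostly above 0 with a median of 0.40.

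The 250 bases before the annotated gene start were searched on both strands for 6 short motifs, since many members were lower together. ACGTG, the core of abscisic acid response elements, was present in 4 of the 35 aquaporin windows and in 22.9% of the windows of 27443 protein-coding genes. TTGAC, the core bound by WRKY factors, was present in 19 of the 35 and in 5 of the 15 lower genes, against 44.9% of all windows. TATAAA was present in 13 of the 35, in 7 of the 15 lower genes and in 47.3% of all windows. CACGTG, which contains ACGTG, was in none of the 35 and in 6.49% of all windows. AAAATATCT and AAACCCTA were also in none of the 35, and in 2.36% and 4.49% of all windows. These are descriptions of letters in the windows. The windows of PIP2-6 and TIP2-2, both lower in Gln, and of TIP4-1, higher in Gln, are shown with TTGAC and TATAAA in capitals on whichever strand they were found, as examples from genes that moved in opposite directions.
PIP2-6: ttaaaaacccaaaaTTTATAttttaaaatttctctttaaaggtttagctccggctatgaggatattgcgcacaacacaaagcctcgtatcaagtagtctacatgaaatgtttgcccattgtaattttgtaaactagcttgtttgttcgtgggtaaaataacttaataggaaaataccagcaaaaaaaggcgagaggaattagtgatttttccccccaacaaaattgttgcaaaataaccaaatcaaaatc
TIP2-2: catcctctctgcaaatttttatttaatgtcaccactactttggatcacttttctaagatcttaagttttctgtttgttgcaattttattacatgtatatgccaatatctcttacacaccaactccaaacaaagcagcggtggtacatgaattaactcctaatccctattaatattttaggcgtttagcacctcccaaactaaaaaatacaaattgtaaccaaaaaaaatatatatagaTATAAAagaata
TIP4-1: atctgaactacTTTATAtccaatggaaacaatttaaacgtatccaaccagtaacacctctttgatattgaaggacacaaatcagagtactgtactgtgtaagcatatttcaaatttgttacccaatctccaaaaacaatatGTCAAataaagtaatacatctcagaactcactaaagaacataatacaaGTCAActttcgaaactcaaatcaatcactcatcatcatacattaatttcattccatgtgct
The windows lie at chr2:16291030-16291279 for PIP2-6, chr4:9698690-9698939 for TIP2-2 and chr2:11012249-11012498 for TIP4-1, all on the plus strand of TAIR10.1. TIP2-2 has TATAAA close to the gene start. PIP2-6 and TIP4-1 have it on the other strand near the far end of the window, and TIP4-1 also has a pair of TTGAC matches on the other strand.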

How the data were processed

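The authors deposited 1 table of RPKM values for 6 libraries, 3 on Gln and 3 on NH4NO3, with TMM scaling named in its title. The header does not name the unit. It was read from the values, which times gene length gave reads plus 0.5 in fixed steps. Of the values at 20 reads or fewer, 98.1% to 98.8% came within 0.05 of a whole number. The multi-read ratio in the deposited table is a fraction with no definition in the header. The submitters' processing notes name SAMtools and TAIR10. Which aligner and counter were used is not given in the sources used here. Per the labels' protocols the kit was TruSeq RNA, which does not mark strand. Positions and sequences come from RefSeq TAIR10.1, to which 32835 of the 33602 loci were matched.

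Genes averaging 1 RPKM or more (19284) were tested with limma 3.58.1 (R 4.3.3) on log2(RPKM + 1), with a mean-variance trend, and 2-sided p-values were adjusted by Benjamini-Hochberg. The test was checked on simulated reads. All 35 members are described, and other lists by counts and up to 4 called genes with the largest change. Further genes of those lists were named after their values were seen, where they did not move with the rest. Members and lists were chosen with earlier results of these data known. Alternatives were other pseudocounts, filters and scalings, array weights, voom weights on implied reads, a replicate block and leaving out each library. No count test was run. Replicates differed by 7.19 to 15.8 times the counting variance, so none was a copy of another.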

Additional observations from a re-analysis of the deposited data

How the results depend on the processing

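Of the 17 called aquaporins, 9 were called in the same direction under every one of the 15 alternatives in which they were tested, namely PIP1-4, PIP1-5, PIP2-1, PIP2-3, PIP2-6, PIP2-7, TIP2-1, TIP2-2 and NIP6-1. With no filter on low values, 9 aquaporins were lower, 1 was higher and the median log2 fold change was -0.13 over 35 genes. Of all 33602 genes, 2645 were then lower and 3416 higher. With a replicate block 16 were lower and 0 higher, when 3383 of all 19284 genes tested were lower and 3891 higher. The deviations of same-numbered libraries correlated at -0.104 to -0.00873. With 3 libraries per group such correlations cannot decide whether equal numbers mark a shared plate or batch. At an unadjusted p under 0.05, limma had 16 lower and 2 higher under the block, against 23.7% lower and 24.7% higher over all genes. Leaving out each library gave 12 to 16 lower aquaporins, 0 to 2 higher, and medians from -0.40 to -0.21. Of all 19284 genes tested, 2595 to 3343 were then lower and 3305 to 3856 higher. Some uncalled values near 0 changed sign. NIP1-2 was -0.014 after quantile normalization. Leaving out each library gave -0.031 to 0.23 for PIP2-4, -0.040 to 0.062 for NIP1-2, -0.081 to 0.063 for NIP5-1, -0.075 to 0.17 for the ratio TIP2-2/TIP2-3 and -0.094 to 0.15 for SIP1-1/SIP1-2. The cause was not tested. Scaling by total reads, chosen after seeing the data, gave 15 lower and 3 higher aquaporins, with 3499 lower and 4220 higher of all 19301 genes.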
